A study of Mus musculus with 8 samples.

Results

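The genes described here are 10 genes for cohesin, the ring that holds sister chromatids together, for its loader, and for the securin and separase pair that decides when the ring is cut. They were chosen by name as a pathway, with earlier results of these data known. The genes are Pttg1, Espl1, Rec8, Rad21, Smc1a, Smc1b, Smc3, Stag2, Stag3 and Nipbl. All 10 were found among the 37224 genes of the count table. They were measured in 8 single mouse eggs (MII oocytes), 4 labelled Setd1bGdf9cKO and 4 labelled control, all taken from superovulated females. The knockout is a conditional one of Setd1b, which encodes an enzyme that methylates histone H3 at lysine 4, and its name refers to Gdf9, whose promoter is widely used to drive Cre recombinase in growing oocytes. The labels used here give no strain, age or allele for either group, and they do not say what the control females carried or whether eggs of a group came from different females. The p-values therefore rest on oocyte-to-oocyte spread, which may be in part technical.

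Cohesin is a ring of a pair of SMC proteins closed by a kleisin, to which a STAG protein binds. Smc3 occurs in every form, while Smc1a, Rad21, Stag1 and Stag2 belong mainly to the mitotic form and Smc1b, Rec8 and Stag3 to the meiotic form. Nipbl loads the ring onto DNA. In oocytes, meiotic cohesin is loaded before birth and has to last until ovulation. In an egg waiting for fertilisation, sister chromatids are still joined near their centromeres. Separase, the protease encoded by Espl1, is kept inactive by securin (Pttg1) and by cyclin B with Cdk1. At fertilisation, the anaphase-promoting complex marks securin and cyclin B for destruction, and separase then cuts the kleisin.

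The comparison asked how the transcripts for this machinery differed between eggs labelled as Setd1b knockout and eggs labelled as control. Pttg1, Stag2 and Rad21 were lower in knockout oocytes. After scaling for library composition, Pttg1 stood at 0.389 of its control level, Stag2 at 0.534 and Rad21 at 0.683. No member was higher. Espl1, Nipbl, Smc1a, Smc1b and Smc3 did not pass the test, and the meiotic subunit genes Rec8 and Stag3 had too few reads to be tested in either genotype.

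The ends of the transcripts that fell are shown because the library kit primes on poly(A) tails, so a measured level also depends on the tail that starts at these bases, whose length was not measured. Each line gives the last 30 bases of 1 annotated transcript, 5′ to 3′, from GENCODE M21 on GRCm38, with the polyadenylation hexamer AATAAA or ATTAAA in capitals.
Pttg1: tatgtatgttgtattAATAAAgcatttgtg
Rad21: aaggtgagtttctgagcAATAAAagatttg
Stag2: cagtaactttttgAATAAAAATAAAcctac
The Pttg1 bases lie at chr11:43420274-43420303 on the minus strand, the Rad21 bases at chr15:51962240-51962269 on the minus strand and the Stag2 bases at chrX:42277146-42277175 on the plus strand. The annotation is newer than the one used for counting, and the Rad21 bases lie just outside the gene as counted. Pttg1 and Rad21 hold 1 hexamer each, and Stag2 holds 2. In the last 100 bases of the annotated transcript, 8 of the 10 members had AATAAA or ATTAAA on the sense strand, and Smc1b and Smc3 had neither. Of 10018 tested protein-coding genes, 81.9% had one of them. The letters TTTTAT and TTTTAAT, which are forms of the cytoplasmic polyadenylation element that oocytes use to lengthen tails during maturation, were in none of the 10 windows. They were in 20.8% of the 10018 genes.

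Promoter sequences were available for 7 members in the RefSeq table for GRCm38.p6, covering 250 bases before to 50 bases after the annotated start. Rad21, Stag2 and Nipbl had none, so of the members that fell only Pttg1 was covered. Setd1b-type methyltransferases act at promoters rich in CpG, and for that reason the promoters of securin and of its target separase are printed, with every CpG in capitals.
Pttg1: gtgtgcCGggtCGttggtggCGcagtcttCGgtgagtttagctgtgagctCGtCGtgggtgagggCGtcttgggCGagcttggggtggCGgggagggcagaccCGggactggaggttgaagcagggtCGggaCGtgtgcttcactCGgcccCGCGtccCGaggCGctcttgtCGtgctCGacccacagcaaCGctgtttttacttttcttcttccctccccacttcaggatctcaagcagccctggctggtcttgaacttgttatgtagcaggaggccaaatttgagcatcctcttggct
Espl1: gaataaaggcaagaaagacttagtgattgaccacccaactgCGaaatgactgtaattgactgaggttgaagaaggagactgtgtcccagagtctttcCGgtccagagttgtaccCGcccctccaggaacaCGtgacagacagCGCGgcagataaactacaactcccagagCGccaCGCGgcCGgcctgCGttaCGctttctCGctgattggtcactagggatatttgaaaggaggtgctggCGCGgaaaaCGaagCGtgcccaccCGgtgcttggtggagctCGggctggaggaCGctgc
The Pttg1 window is chr11:43425932-43426231 on the minus strand and lies within the gene as Ensembl release 69 draws it. The Espl1 window is chr15:102296043-102296342 on the plus strand. Each of these windows held 20 CpG. The 7 members ranged from 18 CpG in Rec8, which had no reads, to 32 in Smc3, with a median of 23. Over 32851 promoters in the table the median was 7, and 29.7% had at least 18. These were not limited to genes expressed enough to be tested, unlike the genes compared for transcript ends. The CCAAT letters, searched on both strands, were in 5 of the 7 windows and in 37.4% of all promoters. TTTGAA, the core letters of the cell cycle homology region, was in the Espl1 window alone among the 7 and in 17.9% of all promoters.

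Total assigned counts ran from 9488899 to 13519404 per library. Levels are given as CPM, read counts scaled to a common library size, with the sizes corrected for composition by TMM, which leaves out the genes of most extreme fold change when it compares libraries. The factors were 1.07 to 1.218 in knockout and 0.7994 to 0.946 in control libraries, so scaling and genotype moved together. Values are relative to this corrected library size and are not amounts per oocyte, since the RNA per oocyte was not measured. The factors put knockout values below, and control values above, their plain shares of reads. Pttg1 in control replicate 4, for example, was 7796 CPM and 0.6233% of assigned reads. Setd1b itself had 10.7, 12.8, 9.23 and 10.9 CPM in control replicates 1 to 4 and 4.42, 5.04, 2.96 and 3.53 CPM in knockout replicates 1 to 4. The groups did not overlap, and the log2 fold change, always given as knockout over control, was -1.44 ± 0.41 (SE; edgeR quasi-likelihood test, Benjamini-Hochberg adjusted p = 0.0221). The call for Setd1b was lost without knockout replicate 3 (adjusted p = 0.0519) or without control replicate 2 (adjusted p = 0.0540), both by edgeR. It was also lost when libraries were scaled by totals alone (log2 fold change -1.04, edgeR adjusted p = 0.0895) and with a centred length trend removed per library, a setting chosen after seeing the data (edgeR adjusted p = 0.0648). All 11 oocyte markers, Gdf9 and Bmp15 among them, had enough reads to be tested. Of these, 4 were higher in knockout oocytes by edgeR, Zp2 (log2 fold change 3.03), Zp3 (1.71), Nlrp5 (1.66) and Zp1 (1.54), and 2 were lower, Oosp1 (-1.43) and Dazl (-0.59). The 20 markers of cumulus and granulosa cells summed to 113 to 185.2 CPM in knockout and 215.4 to 246.7 CPM in control libraries, and 9 of them, including Amh, Foxl2, Inha and Ptx3, had no reads. The 9 markers of blood, stroma and epithelium summed to 28.28 to 53.58 CPM in knockout and 94.57 to 123.3 CPM in control libraries, with Hbb-bt, Ptprc and Col1a2 at 0. The cumulus and granulosa sum came mostly from Esr2, Cyp19a1 and Kitl. Their control means were 109.8, 88.66 and 28.27 CPM, and their knockout means 62.98, 49.15 and 21.41 CPM. The other sum came mostly from Pecam1 (mean 59.91 CPM in control, 33.67 CPM in knockout) and Epcam (32.88 and 2.971 CPM). Both sums moved in the direction of the members that fell, and their part in the results below was not tested.

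Over the table, 11066 genes were expressed enough to be tested. At an adjusted p of 0.05, 13.6% were higher and 12.2% lower in knockout oocytes, 25.8% in either direction. Of the 8 members tested, 0 were higher and 3 were lower. In 4 of the 8, Pttg1, Rad21, Stag2 and Nipbl, every knockout library lay below every control library in CPM, which held for 13.6% of all tested genes (31.2% did not overlap in either direction). As plain shares of assigned reads, Pttg1 and Stag2 stayed apart, while Rad21 and Nipbl overlapped. For Rad21 the highest knockout share was 0.0393% and the lowest control share 0.0334%. For Nipbl these were 0.0351% and 0.0264%. The median log2 fold change of the 8 was -0.47, beside 0.10 for all tested genes. Each of the 8 had a negative value, as had 46.3% of tested genes. When libraries were scaled by their totals alone, the median of all genes moved to 0.49 and 4 of the 8 members were negative, and all 8 still lay below that median. With a filter of 10 CPM in 4 libraries the median was 0.02. Of the 8 members, 7 were then negative and below it, and Smc3 was at 0.04.

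**Figure D1:**
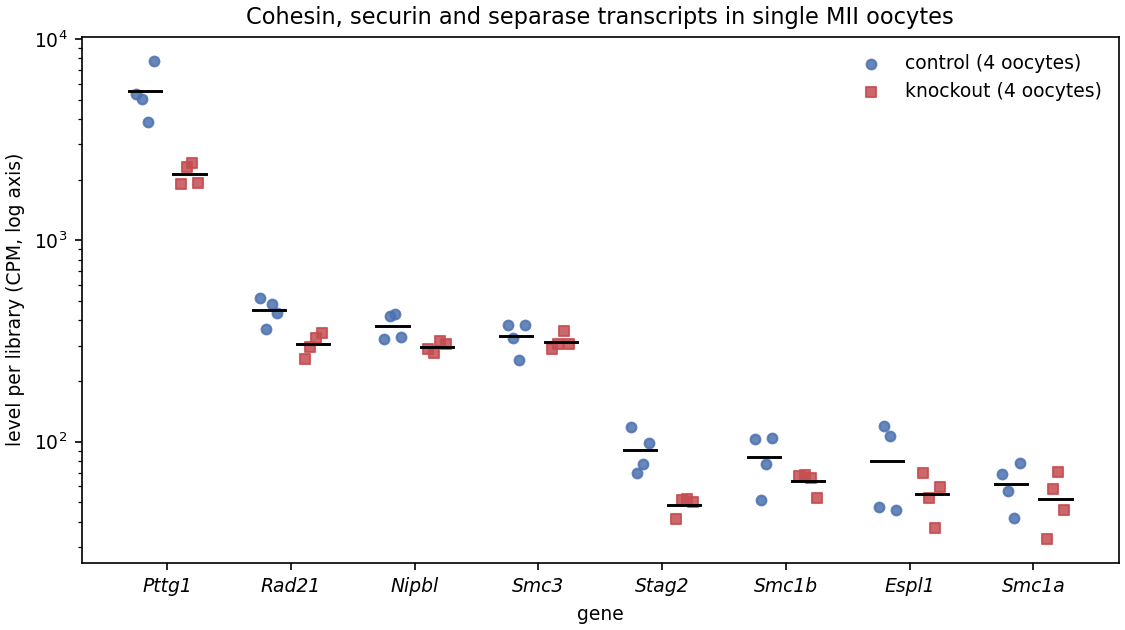
Level of the 8 tested members in each oocyte, in CPM on a log axis, with circles for the 4 control and squares for the 4 knockout libraries and a black line at each group's mean. The groups are apart for Pttg1, Rad21, Stag2 and Nipbl, and they overlap for Smc3, Smc1b, Espl1 and Smc1a.

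Securin was by far the most abundant of these transcripts. Pttg1 (ENSMUSG00000020415, chromosome 11, 43420250 to 43426251, minus strand, mm10, 5 exon blocks, 2000 exonic bases) had 5307, 5026, 3858 and 7796 CPM in control replicates 1 to 4 and 1895, 2302, 2412 and 1930 CPM in knockout replicates 1 to 4. Every knockout oocyte was below every control oocyte, and the control oocytes spread more widely (SD 1656 CPM against 261 CPM, n = 4 each). Pttg1 made up 0.365% to 0.623% of all assigned reads in control libraries and 0.219% to 0.270% in knockout libraries. The log2 fold change was -1.36 ± 0.21 (SE, 95% interval -1.82 to -0.90; edgeR adjusted p = 0.000998). Under 17 alternative settings, which include leaving out each library in turn, the gene stayed called in all 17, with log2 fold changes from -1.94 to -0.95 and adjusted p from 7.62e-09 to 0.00971. The authors' deposited table gives Pttg1 a shrunken log2 fold change of -1.38 and an adjusted p of 3.46e-08.

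Separase had far fewer reads. Espl1 (ENSMUSG00000058290, chromosome 15, 102296293 to 102324356, plus strand) had 47.3, 119.9, 106.4 and 45.7 CPM in control replicates 1 to 4 and 69.9, 52.4, 37.3 and 59.7 CPM in knockout replicates 1 to 4. The control oocytes fell into a high and a low pair, with 3 of the 4 knockout oocytes in between, and the groups overlapped. The log2 fold change was -0.54 ± 0.34 (SE; edgeR adjusted p = 0.264), with an interval from -1.28 to 0.19 that holds both no change and a fall as large as that of Rad21. Control replicates 1 and 4, the pair low in Espl1, were the pair highest in Pttg1 and had the lowest TMM factors, 0.8235 and 0.7994.

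The balance of inhibitor and protease was therefore compared within each oocyte, as the log2 ratio of counts per gene length. The Pttg1 to Espl1 ratio was 8.54, 7.12, 6.91 and 9.14 in control replicates 1 to 4 and 6.49, 7.19, 7.74 and 6.74 in knockout replicates 1 to 4. As geometric means, Pttg1 reads per exonic base were 243.2-fold those of Espl1 in control and 131.5-fold in knockout oocytes. These folds are not numbers of transcripts, since they depend on the length used. The 2000 exonic bases of Pttg1 compare with 948 bases in the annotated transcript whose end is printed above. The groups overlapped, and the difference of -0.89 had an exact two-sided permutation p of 0.229 over 70 assignments (0.386 adjusted over the 3 ratios tested). Of 5 ratios planned, the remaining pair, Rec8 to Rad21 and Stag3 to Stag2, had a gene at or near 0 and got no test.

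**Figure D2:**
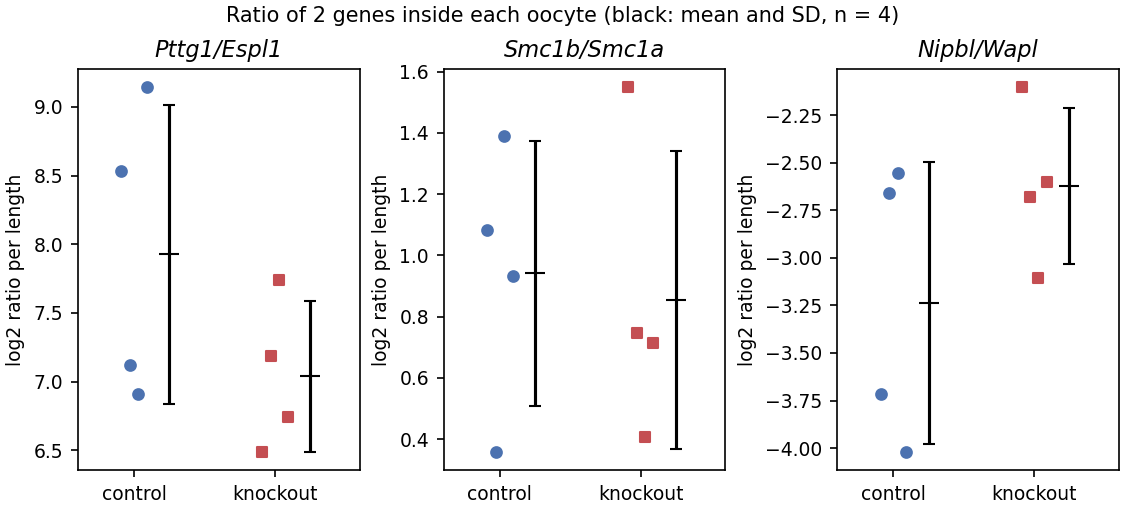
Log2 ratio of counts per length for 3 gene pairs inside each oocyte, with circles for control and squares for knockout oocytes and black marks for the mean and SD (n = 4); the axes differ between panels and do not start at 0. The groups overlap in each panel, and the Pttg1 to Espl1 ratio spreads most in control oocytes, from 6.91 to 9.14.

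Among the kleisins, the mitotic subunit gene had by far the most reads. Rad21 (ENSMUSG00000022314, chromosome 15, 51962605 to 51991760, minus strand), which closes the mitotic ring, had 518.3, 360.8, 485 and 436.6 CPM in control replicates 1 to 4 and 256.7, 296.6, 328.4 and 346.4 CPM in knockout replicates 1 to 4. In CPM the groups did not overlap, though the highest knockout and lowest control oocyte were close, and as plain shares of reads the groups overlapped. The log2 fold change was -0.55 ± 0.17 (SE; edgeR adjusted p = 0.0320), and the authors' deposited table gives -0.58 with an adjusted p of 0.00512. This call was less firm than that of Pttg1 and held under 10 of 17 alternatives. Beside the loss under the replicate block, by edgeR it was lost without knockout replicate 1 (adjusted p = 0.0992), knockout replicate 2 (0.0937), control replicate 1 (0.0810) or control replicate 3 (0.0662), with a stricter filter on low levels (0.0559) and when libraries were scaled by their totals alone (log2 fold change -0.16, adjusted p = 0.482).

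Rec8 encodes the kleisin that holds meiotic chromosomes together. The gene (ENSMUSG00000002324, chromosome 14, 55618037 to 55625395, plus strand, 2748 exonic bases) had 0 counts in all 8 libraries. A limit of 3 counts per library, which covers counting error only, corresponds to 0.225 to 0.330 CPM. Per length, Rad21 was at least 871.5-fold to at least 1496-fold above that limit for Rec8, depending on the oocyte. None of the 3134 stretches of 75 bases, the read length, in the annotated Rec8 transcripts occurred in transcripts of another gene, and no exonic base of Rec8 was shared with another gene. Of its neighbours, Ipo4 had 71 and Tm9sf1 60 counts in all control libraries and 300 and 105 in all knockout libraries, while Rnf31 had 5 and 15, Irf9 0 and 24 and Tssk4 0 and 7. The third kleisin gene, Rad21l, which serves in meiotic prophase, had 0, 1.598, 0 and 0 CPM in control replicates 1 to 4 and 0.150, 2.48, 1.89 and 1.302 CPM in knockout replicates 1 to 4, and its log2 fold change of 1.80 ± 1.42 (SE) did not pass the edgeR test (adjusted p = 0.385). Without control replicate 2, the only control library with reads, edgeR called it (adjusted p = 0.0249), in a fit whose fold change against a control group at 0 depends on the prior count.

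No SMC arm of the ring was called as different between the groups. Smc3 (ENSMUSG00000024974, chromosome 19, 53600398 to 53645833), the arm common to all forms of the ring, had 377.7, 328.5, 254.9 and 378.9 CPM in control replicates 1 to 4 and 287.8, 305.5, 354.5 and 307 CPM in knockout replicates 1 to 4. The knockout oocytes lay inside the control range, and the log2 fold change was -0.09 ± 0.17 (SE, 95% interval -0.46 to 0.28; edgeR adjusted p = 0.724). Of its 5464 stretches of 75 bases, 18 also occurred in Gm11204, so a small share of Smc3 reads could be lost.

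Smc1a (ENSMUSG00000041133, chromosome X, 152016428 to 152062694), the mitotic partner of Smc3, had 69.3, 56.9, 41.9 and 78.2 CPM in control replicates 1 to 4 and 32.9, 58.5, 70.9 and 45.7 CPM in knockout replicates 1 to 4, and the groups overlapped. Its log2 fold change was -0.24 ± 0.28 (SE; edgeR adjusted p = 0.558). Smc1b (ENSMUSG00000022432, chromosome 15, 85064691 to 85131957), the meiotic partner, had 102.6, 51.0, 77.1 and 104.6 CPM in control replicates 1 to 4 and 67.3, 68.6, 65.9 and 52.5 CPM in knockout replicates 1 to 4, again overlapping, with a log2 fold change of -0.40 ± 0.24 (SE; edgeR adjusted p = 0.254). Smc1b was thus the only one of the 3 meiotic subunit genes among the members with enough reads for a test. Per length, the geometric mean ratio of Smc1b to Smc1a was 1.92 in control and 1.81 in knockout oocytes, and the log2 difference of -0.09 had an exact permutation p of 0.771 (0.771 adjusted over the 3 ratios).

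The STAG subunits, which anchor the ring and help to release it, also had their reads mainly in mitotic genes. Stag2 (ENSMUSG00000025862, chromosome X, 42149317 to 42277185, plus strand) had 118.2, 70.1, 77.5 and 98.2 CPM in control replicates 1 to 4 and 41.1, 51.1, 52.1 and 49.9 CPM in knockout replicates 1 to 4. The groups did not overlap, and the 4 knockout oocytes were close to each other (SD 5.04 CPM against 21.7 CPM in controls). The log2 fold change was -0.90 ± 0.21 (SE, 95% interval -1.37 to -0.44; edgeR adjusted p = 0.00970), and the authors' deposited table gives -0.93 with an adjusted p of 0.000201. It was called under 15 of 17 alternatives. The exceptions were scaling by library totals alone (-0.50, edgeR adjusted p = 0.0788) and the centred length trend (-0.62, edgeR adjusted p = 0.0653).

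Stag1, the other mitotic STAG gene and no member of the set, had 91.3, 44.1, 99.4 and 72.2 CPM in control replicates 1 to 4 and 39.9, 40.04, 48.8 and 42.8 CPM in knockout replicates 1 to 4. Control replicate 2 lay within the knockout range, and the log2 fold change was -0.84 ± 0.25 (SE; edgeR adjusted p = 0.0309). By edgeR the call was lost without knockout replicate 1 (adjusted p = 0.0851), knockout replicate 2 (0.0907), knockout replicate 4 (0.0702), control replicate 1 (0.0728) or control replicate 3 (0.0836). The Stag1 fold change shrank to -0.45 with scaling by totals alone (edgeR adjusted p = 0.221) and to -0.49 with the centred length trend (edgeR adjusted p = 0.170). Stag3, the meiotic STAG gene (ENSMUSG00000036928, chromosome 5, 138280240 to 138312393), had 0, 0, 3 and 0 counts in control and 5, 12, 0 and 0 counts in knockout replicates 1 to 4. These counts are at or near the limit of 3 per library, and no fold change is given. Per length, Stag2 lay 39.2-fold to 248.1-fold above the Stag3 count or the 3-count limit, whichever was larger, in each oocyte.

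Nipbl (ENSMUSG00000022141, chromosome 15, 8291225 to 8444463, minus strand), the loader, had 322.1, 421, 427.9 and 330.7 CPM in control replicates 1 to 4 and 288.1, 275, 316.3 and 306.6 CPM in knockout replicates 1 to 4. In CPM the groups did not overlap, but the gap between them was small, and as plain shares of reads the groups overlapped. The log2 fold change was -0.34 ± 0.16 (SE, 95% interval -0.68 to 0.00486), and edgeR did not call it (adjusted p = 0.137). None of the 17 alternatives called Nipbl, and scaling by library totals alone gave it a log2 fold change of 0.04.

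**Figure D3:**
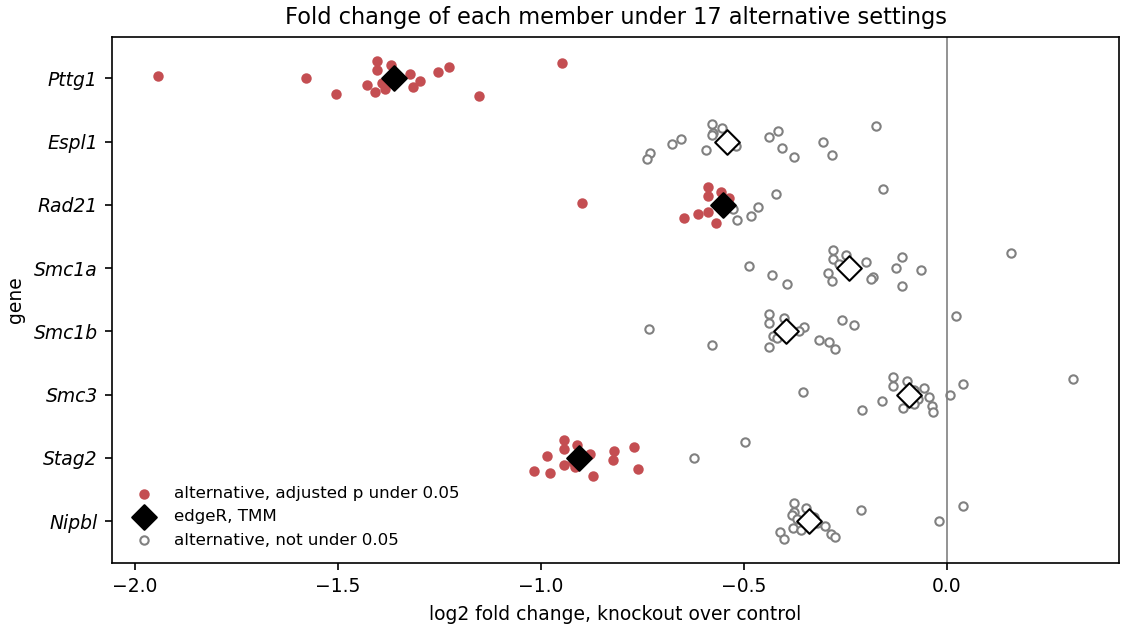
Log2 fold change, knockout over control, of the 8 tested members by edgeR with TMM (diamonds) and under 17 alternative settings (circles), filled where the adjusted p is under 0.05. Pttg1 is filled in all 17, Stag2 in 15 and Rad21 in 10, and the other 5 members in none.

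The order of the members by level, in CPM per kilobase of exon, was similar in both groups. In control oocytes Pttg1 averaged 2749 ± 828 CPM per kb (SD, n = 4), above 99.8% of tested genes. It was followed by Rad21 with 124.9 ± 19.0, Smc3 with 60.5 ± 10.5, Nipbl with 42.6 ± 6.44 and Smc1b with 20.8 ± 6.24 CPM per kb. Pttg1 and Rad21 each stood clear of the next gene in every library, while Smc3 overlapped Nipbl. Espl1 (12.0 ± 5.86), Stag2 (11.0 ± 2.62) and Smc1a (10.7 ± 2.73 CPM per kb) overlapped each other and could not be ordered, and Smc1b overlapped Espl1. In knockout oocytes Pttg1 averaged 1067 ± 131 CPM per kb and Rad21 85.2 ± 10.9, and the order down to Smc1b was the same. Below it came Smc1a (9.01 ± 2.84), Espl1 (8.27 ± 2.07) and Stag2 (5.87 ± 0.609 CPM per kb), so Stag2 was last of the tested members, with Espl1 overlapping each of its neighbours.

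The enzymes that load, acetylate and release cohesin were covered by 9 genes, and all 9 were tested. Of these, 0 were higher and 3 were lower, and the median log2 fold change was -0.24. Of all tested genes, 13.6% were higher and 12.2% lower, and in 31.2% the groups did not overlap. Esco1, an acetyltransferase that modifies Smc3, had 955.8, 655.4, 731.6 and 895.9 CPM in control replicates 1 to 4 and 293.4, 410.9, 447.1 and 396.9 CPM in knockout replicates 1 to 4. The groups did not overlap, the log2 fold change was -1.06 ± 0.18 (SE; edgeR adjusted p = 0.00187), and the call held under all 17 alternatives. Cdca5, encoding sororin, which shields the ring from release, had 356.5, 383.6, 385.6 and 197.9 CPM in control replicates 1 to 4 and 169.5, 157.5, 147 and 229.3 CPM in knockout replicates 1 to 4. Control replicate 4 lay inside the knockout range, and the log2 fold change was -0.91 ± 0.23 (SE; edgeR adjusted p = 0.0140). The Cdca5 call was lost by edgeR with scaling by totals alone (log2 fold change -0.53, adjusted p = 0.145) and without knockout replicate 2 (adjusted p = 0.0533).

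Wapl, the releasing factor that opens the ring, had 3175, 2002, 1887 and 4033 CPM in control replicates 1 to 4 and 931.3, 1323, 2047 and 1400 CPM in knockout replicates 1 to 4. The groups overlapped, and as for Pttg1 the highest levels were in control replicates 1 and 4. The log2 fold change was -0.96 ± 0.28 (SE; edgeR adjusted p = 0.0275). By edgeR the call was lost without knockout replicate 1 (adjusted p = 0.0782), knockout replicate 2 (0.0829), knockout replicate 4 (0.0703), control replicate 1 (0.0600) or control replicate 4 (0.0674), with scaling by totals alone (-0.55, adjusted p = 0.101) and with the centred length trend (0.0881). The loader to releaser ratio, Nipbl to Wapl, was -3.24 ± 0.74 in control and -2.62 ± 0.41 in knockout oocytes (mean ± SD of log2 per length, n = 4), and the difference of 0.61 had an exact permutation p of 0.257 (0.386 adjusted over the 3 ratios). Esco2, the other acetyltransferase, did not overlap between groups but missed the threshold (log2 fold change -0.52, edgeR adjusted p = 0.0622). Also not called were Ctcf (-0.24), the DNA-binding factor at which cohesin pauses, Pds5a (-0.21) and Pds5b (0.31), which bind the ring with Wapl, the Smc3 deacetylase Hdac8 (0.50) and the Nipbl partner Mau2 (1.17).

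The list on protection of centromeric cohesion, which covers shugoshins, the phosphatase PP2A they recruit and the kinases that place them, had 13 tested genes. Of these, 2 were higher and 1 was lower, beside 13.6% and 12.2% of all tested genes, with a median log2 fold change of 0.15. Bub1, the kinase that marks histone H2A at centromeres for shugoshin, had 19.7, 16.0, 23.8 and 46.4 CPM in control replicates 1 to 4 and 128.9, 144.2, 126.6 and 127.3 CPM in knockout replicates 1 to 4. All knockout oocytes were well above all control oocytes, and the log2 fold change of 2.32 ± 0.31 (SE; edgeR adjusted p = 0.000412) was called under all 17 alternatives. Ppp2r5d, a regulatory PP2A subunit, rose by 1.72 ± 0.41 (log2, SE; edgeR adjusted p = 0.00974) from 4.80 to 11.1 CPM in control to 13.3 to 30.6 CPM in knockout oocytes, and shares 3.93% of its exonic bases with the more highly counted Mea1 on the opposite strand. Ppp2r5e, another regulatory subunit, fell by 0.86 on the log2 scale (edgeR adjusted p = 0.0298), from 45.8 to 93.0 CPM in control to 31.3 to 36.2 CPM in knockout oocytes. For Ppp2r5e the edgeR call was lost without any 1 of the 4 knockout libraries (adjusted p from 0.0527 without replicate 3 to 0.0745 without replicate 1), without control replicate 2 (0.0566), without control replicate 4 (0.0775) and with scaling by totals alone (-0.45, adjusted p = 0.206). The shugoshin gene Sgo2a was not called (log2 fold change -0.52, edgeR adjusted p = 0.0553). It shares 49.7% of its exonic bases with Kctd18 on the opposite strand. With no strand setting, a read in the shared bases is ambiguous and is counted for neither gene.

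Genes that hold securin and separase in check or release them numbered 9, all tested. Of these, 0 were higher and 3 were lower, beside 13.6% and 12.2% of all tested genes, and the median log2 fold change was -0.41. Fbxo5, encoding Emi1, an inhibitor of the anaphase-promoting complex, had a log2 fold change of -1.301 (SE 0.23; edgeR adjusted p = 0.00216), from 249.9 to 406.3 CPM in control to 94.5 to 182.3 CPM in knockout oocytes. It was called under all 17 alternatives. Ccnb1, cyclin B1, which with Cdk1 inhibits separase, fell by 0.78 on the log2 scale (SE 0.21; edgeR adjusted p = 0.0165), from 1286 to 1821 CPM in control to 633.2 to 1163 CPM in knockout oocytes. With scaling by totals alone, Ccnb1 was no longer called (log2 fold change -0.38, edgeR adjusted p = 0.107). Pttg1ip, whose protein binds securin, fell by 0.72 on the log2 scale (SE 0.20; edgeR adjusted p = 0.0209), from 104.7 to 178.8 CPM in control to 75.5 to 95.1 CPM in knockout oocytes. In CPM the groups did not overlap for any of these 3 called genes. Over the 9 genes of the list, 4 were lower and 1 was higher without overlap, beside 13.6% and 17.6% of all tested genes. For Pttg1ip the edgeR call was lost without knockout replicate 1 (adjusted p = 0.0664), knockout replicate 2 (0.0652) or control replicate 2 (0.0628), and with scaling by totals alone (-0.33, adjusted p = 0.2501).

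Condensin and the SMC5/6 complex are the relatives of cohesin that compact and repair chromosomes. Of 16 genes listed, 15 were found and tested, with a median log2 fold change of -0.30. Among the 15, 2 were higher and 5 lower, beside 13.6% and 12.2% of all tested genes. Ncaph, the kleisin of condensin I, rose by 1.82 (log2, SE 0.23; edgeR adjusted p = 0.000311), from 17.96 to 22.9 CPM in control to 58.6 to 93.6 CPM in knockout oocytes. Ncaph2, the kleisin of condensin II, rose by 2.05 (log2, SE 0.44; edgeR adjusted p = 0.00561), from 2.10 to 6.72 CPM in control to 12.5 to 21.4 CPM in knockout oocytes, and shares 19.7% of its exonic bases with genes on the opposite strand. Smc6, an SMC subunit of the repair complex, fell by 0.98 (log2, SE 0.20; edgeR adjusted p = 0.00459), from 523.9 to 838.3 CPM to 257.8 to 424.1 CPM, and its partner Nsmce3 fell by 0.98 (log2, SE 0.21; edgeR adjusted p = 0.00538). With scaling by totals alone, Nsmce3 was no longer called (log2 fold change -0.60, edgeR adjusted p = 0.0791). The other 3 that fell were Smc5, Ncapg and Ncapg2.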

How the data were processed

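RNA from 8 single oocytes, grouped by the genotype label (4 knockout, 4 control), was amplified with a SMARTer kit and sequenced as 75-base single reads, per the labels' protocols. The kit keeps no strand and no molecular identifiers. The submitters' processing notes name GSNAP, featureCounts 1.4.4 and DESeq2 1.3.79, with mm10 as the build. The deposited counts per gene rest on Ensembl release 69, a minimum mapping quality of 1, no strand and no multiply mapped reads, per the file headers. The deposited comparison holds 2709 genes with the authors' log2 fold changes and p-values; its 3 members are quoted as such and were not used in any test.

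Of 37224 genes, 18743 had no count. The main test was the quasi-likelihood F test of edgeR 4.0.16 (R 4.3.3) after TMM and filterByExpr, with genotype as the only term, Benjamini-Hochberg adjustment over 11066 genes and a threshold of 0.05. An SE was computed from F, as the size of the log2 fold change over its square root. The script was tested on simulated data. Ratios used a pseudocount of 0.5 counts and an exact permutation test (scipy 1.17.1, Python 3.11.15). A table of gene names gave 35449 symbols. Within-group correlations of log2(CPM + 1) were 0.931 to 0.958, and each pair differed by more than sampling noise (chi-square per degree of freedom 32.4 to 108.3). Members and lists were chosen with earlier results of these data known. The text names all members, up to 4 called genes of each pathway list by smallest p, and every gene of the 2 lists on cohesin subunits and on loading. Outside this rule, Smc5, Ncapg and Ncapg2 were added after their values were seen, to complete a count, and Sgo2a is named for the bases it shares with another gene. The alternatives tried were DESeq2 1.42.0, voom of limma 3.58.1 with library weights, size factors by median of ratios, scaling by totals, a filter of 10 CPM in 4 libraries or none, the replicate number as a block, a length trend removed per library (loess, span 0.5), each library left out and an adjusted p of 0.01. A length trend centred on 0 was added after the uncentred result was seen.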

Additional observations from a re-analysis of the deposited data

Results flagged for a closer look

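Among 68 groups of 4 libraries tested for a single library far from the rest, 5 were marked, where chance alone marks about 1 group in 20. The gap to the nearest library, divided by the whole range, was above Dixon's 95% critical value in each. Smc1b was lowest in knockout replicate 4 at 52.5 CPM, beside 65.9 to 68.6 CPM in the other 3 knockout libraries. Cdca5 was lowest in control replicate 4 at 197.9 CPM, beside 356.5 to 385.6 CPM in the other control libraries. Bub1 was highest in knockout replicate 2 at 144.2 CPM, beside 126.6 to 128.9 CPM. Rad21l was highest in control replicate 2 at 1.598 CPM and Stag3 in control replicate 3 at 0.247 CPM, and both genes were at 0 in the other 3 control libraries. With 3 libraries at 0, any reads in the remaining library lead to a mark. The rate of 1 group in 20 therefore does not apply to these marks.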

How the results depend on the processing

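Of the member results, the 3 falls went to 1 when libraries were scaled by totals alone, and leaving out 1 library gave 2 to 3. For the pathway lists, with 2, 9, 13, 9 and 15 tested genes, 4 genes in all were higher and 13 lower. Of all tested genes, 13.6% were higher and 12.2% lower. Library totals gave 8 higher and 3 lower, an adjusted p of 0.01 gave 4 lower, the uncentred length trend gave 23 lower, and leaving out 1 library gave 5 (without knockout replicate 2) to 12 lower, with 6 without knockout replicate 1. Over all genes, 1503 were higher and 1347 lower; an adjusted p of 0.01 gave 747 and 644, library totals 2382 and 504, and the uncentred length trend 1018 and 2331. Leaving out 1 library gave 1012 to 1597 higher and 837 (without knockout replicate 2) to 1244 lower. The median log2 fold change of all genes was 0.10, and moved to 0.49 with library totals and to -0.22 with the uncentred length trend. No called result reversed. The Pttg1 to Espl1 difference ran from -1.23 to -0.48 (without control replicate 4) with 1 library left out. Same-numbered libraries of the 2 groups had deviation correlations from -0.159 to -0.031, and differently numbered ones from -0.116 to 0.148. These values show no shared deviation by number, but cannot tell whether same-numbered oocytes were handled together. With the replicate block, edgeR called 1090 genes higher and 861 lower, 4 pathway genes lower, and 2 members, Pttg1 (adjusted p = 0.00971) and Stag2 (0.0454). The edgeR calls lost under it were Rad21 (0.0953), Setd1b (0.0700), Stag1 (0.0699), Cdca5 (0.0594), Wapl (0.0695), Ppp2r5e (0.0875), Ccnb1 (0.0578) and Pttg1ip (0.0591). Of the single-gene values, 49 lost their call under an alternative and 4 gained one. The cause of these changes was not tested. Rec8 and Stag3 cannot be compared at this depth, and amplified copies count as separate reads.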
